A study of Mus musculus with 5 samples.

Results

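Collagen VI and the collagens that coat fibrils were examined in RNA of mouse mitral valve leaflets. The 10 genes were picked by name from the 24062 genes of the count table. They are Col6a1, Col6a2 and Col6a3 of collagen VI, Col9a1, Col9a2 and Col9a3 of collagen IX, Col12a1, Col14a1 and Col16a1, and the short-chain collagen gene Col8a1. All 10 had a row in the table and all 10 passed the filter on low counts, although Col9a2 and Col8a1 passed only through reads in knockout libraries. The study sequenced 5 libraries to follow what losing Ift88, a gene of cilium assembly, does to leaflet RNA. By their titles 2 libraries are wild type (WT 1 and WT 2) and 3 are knockout (KO 1, KO 2 and KO 3). The genotype labels give every library the NfatC1Cre driver, which acts in the endocardial lineage, so cells of other lineages may keep the intact gene. The same labels write Ift88f/f for the WT group and Ift88+/+ for the KO group, opposite to what the names of the groups would mean. Age, pooling and whether each library is a separate animal are not given in the labels, so the p-values speak for the spread among these libraries alone, which may be technical.

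Collagen VI is built from 3 different chains and forms beaded microfilaments, and these surround cells and lie next to basement membranes and fibrils. The fibril-associated collagens (types IX, XII, XIV and XVI) form no fibrils of their own. They sit on the surface of collagen I or collagen II fibrils, with triple helices that are interrupted and end in large non-helical domains. Collagen VIII is a short-chain network former made by endothelial and vascular cells. In heart valves the fibrosa layer is rich in collagen fibrils, while collagen VI is spread through the leaflet matrix.

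Sequences ahead of the start sites are shown for the genes of the collagen VI chains, which join into 1 protein. They are also shown for Col16a1, whose window held the most kinds of motif match. RefSeq (GRCm38.p6) gave a promoter window for 7 of the 10 genes, and where it lists 2 starts (Col6a2 and Col9a1) the one nearest the GENCODE start was taken. The stretches run 5′ to 3′ and stop before the start of the gene in both RefSeq and GENCODE M21, and capitals mark matches on either strand to the GC box GGGCGG or the CCAAT box.
Col6a1, chr10:76726169-76726294, minus strand: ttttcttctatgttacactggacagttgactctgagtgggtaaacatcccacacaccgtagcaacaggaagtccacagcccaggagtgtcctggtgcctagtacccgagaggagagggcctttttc
Col6a2, chr10:76623631-76623880, minus strand: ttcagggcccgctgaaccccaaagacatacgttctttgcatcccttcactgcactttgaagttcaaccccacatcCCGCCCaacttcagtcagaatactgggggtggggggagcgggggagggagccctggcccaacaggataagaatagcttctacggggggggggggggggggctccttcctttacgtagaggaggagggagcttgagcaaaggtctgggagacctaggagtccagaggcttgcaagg
Col6a3, chr1:90843972-90844221, minus strand: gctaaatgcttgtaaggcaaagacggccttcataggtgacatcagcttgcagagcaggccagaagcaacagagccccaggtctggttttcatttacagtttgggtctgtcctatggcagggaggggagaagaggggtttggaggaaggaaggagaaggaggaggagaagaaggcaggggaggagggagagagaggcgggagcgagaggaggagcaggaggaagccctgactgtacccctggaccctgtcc
Col16a1, chr4:130047590-130047839, plus strand: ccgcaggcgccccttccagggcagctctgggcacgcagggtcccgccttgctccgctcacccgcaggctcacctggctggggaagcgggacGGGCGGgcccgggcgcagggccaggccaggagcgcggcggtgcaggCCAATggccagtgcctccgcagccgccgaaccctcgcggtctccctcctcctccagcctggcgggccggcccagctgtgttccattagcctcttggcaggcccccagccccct

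The 3 collagen VI windows shared no motif match among those searched. Over the 250 bases before the RefSeq start, Col6a2 had 1 GC box match and Col6a3 had 0 matches of any kind. Col6a1 had 1 match to the AP-1 site TGANTCA (as TGACTCA, its first base 90 bases before the start), in a part that the GENCODE model already counts as transcribed and that is not printed. Col9a2 had 2 GC box matches, both also in a part that the GENCODE model counts as transcribed, and Col8a1 had 4. The share of all 32851 mouse windows with a match was 32.7% for the GC box, 33.8% for CCAAT, 12.4% for the TATA box TATAAA, 6.75% for the AP-1 site and 0.225% for the Gli site TGGGTGGTC. No window of the 7 genes held the TATA box or Gli letters, and these matches are letters in a window, not sites of binding.

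Libraries held between 23361414 and 53789026 counted reads. The targeted gene Ift88 stood at 7.54 and 19.8 CPM in WT 1 and WT 2 and at 3.0, 3.92 and 0.409 in KO 1, KO 2 and KO 3. CPM here is the read count scaled to a common library size with TMM factors, which even out library composition. The level thus followed the titles. The libraries differed widely in the cells they held. Cardiomyocyte markers (10 of 10 detected in every library, among them Actc1 and Tnnt2) summed to 57514 CPM in WT 1 and to 100.03 in WT 2, and to between 26354 and 33774 in KO. The 6 interstitial cell markers that are not collagens (Vim, Pdgfra, Dcn, Lum, Postn and Tcf21) summed to 2137 and 6498 CPM in WT 1 and WT 2 and to between 5004 and 8023 in KO, with none at 0. Endothelial markers, 8 of 8 detected in each library, summed to 308.3 and 2880 CPM in WT and to between 1615 and 2599 in KO. Interstitial and endothelial markers of the labelled tissue were thus present, and 2 libraries stood apart: WT 2 had almost no heart muscle RNA, while every other library held much of it, and WT 1 had the lowest interstitial and endothelial marker sums. Markers of epicardium and mesothelium, the outer lining of the heart, summed to 1.90 and 3.50 CPM in WT and to 3.22, 188 and 31.5 in KO 1, KO 2 and KO 3, with Upk3b and Lrrn4 at 0 in both WT libraries and KO 1. How far these shares bear on the collagens was not tested. In bulk RNA, fewer cells of a type and less RNA per cell cannot be told apart.

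All 3 collagen VI genes stood above both WT libraries in each of the KO libraries. Col6a1 (chromosome 10, 76708792 to 76726168, minus strand, GRCm38) encodes the first of the chains and had the highest level per length of the 10 genes. It measured 58.5 and 104 CPM in WT 1 and WT 2, and at 269, 287 and 209 in KO 1, KO 2 and KO 3. The groups did not overlap, and WT 1 was the lowest library. Per kilobase of its longest transcript these levels were 14.3 and 25.4 CPM in WT and between 51.1 and 69.9 in KO. The WT mean was 81.3 ± 32.3 (SD, n = 2) against 255 ± 40.4 (SD, n = 3) for KO, and the fitted log2 difference was 1.65 (SE 0.40).

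Col6a2 lies next to it on chromosome 10 (76595762 to 76623630, minus strand) and encodes the second chain. Its levels were 54.8 and 42.2 CPM in WT 1 and WT 2 and 169, 177 and 100 in KO 1, KO 2 and KO 3, a log2 fold change of 1.62 (SE 0.40). Here WT 1 was the higher WT library, whereas WT 2 was the higher for Col6a1. Col6a3 (chromosome 1, 90765923 to 90843971, minus strand) encodes the largest of the chains, whose C-terminal fragment is released as endotrophin. The WT pair measured 12.7 and 22.7 CPM, against 59.3, 105 and 41.6 for the KO libraries. All KO values were above WT, with a log2 fold change of 1.96 (SE 0.57). With each library's trend with transcript length removed the value was 0.92, and the transcript of Col6a3 is long, at 10106 nt.

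None of these differences passed correction over all genes. Unadjusted p was 0.00603, 0.00672 and 0.0136 for Col6a1, Col6a2 and Col6a3, and the adjusted p was 0.81 for each (edgeR quasi-likelihood test). KO 3 was the lowest KO library and KO 2, which also held most of the epicardial marker reads, the highest for all 3 genes. Without KO 2 the log2 fold changes were 1.56, 1.48 and 1.51.

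Per kilobase of transcript, Col6a1 took 53.5 and 70.1% of the reads of the 3 chains in WT 1 and WT 2, and between 60.1 and 67.6% in KO. Col6a2 took 41.8 and 23.7% in WT and between 27.0 and 32.5% in KO. Col6a3 had the smallest share in every library, from 4.7 to 8.95%. The WT libraries thus spanned the KO libraries in the shares of Col6a1 and Col6a2. The ratio of Col6a1 to Col6a2 per kilobase was 1.28 and 2.96 in WT and 1.90, 1.94 and 2.50 in KO, a mean log2 difference of 0.11 (exact two-sided permutation p = 1.0). The ratio of Col6a1 to Col6a3 was 11.4 and 11.3 in WT and 11.2, 6.72 and 12.4 in KO (difference -0.22, exact two-sided permutation p = 0.8). A comparison of 2 with 3 libraries cannot go below 0.2 in this test, and with p-values adjusted over the 4 ratios examined both were 1.0.

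**Figure D1:**
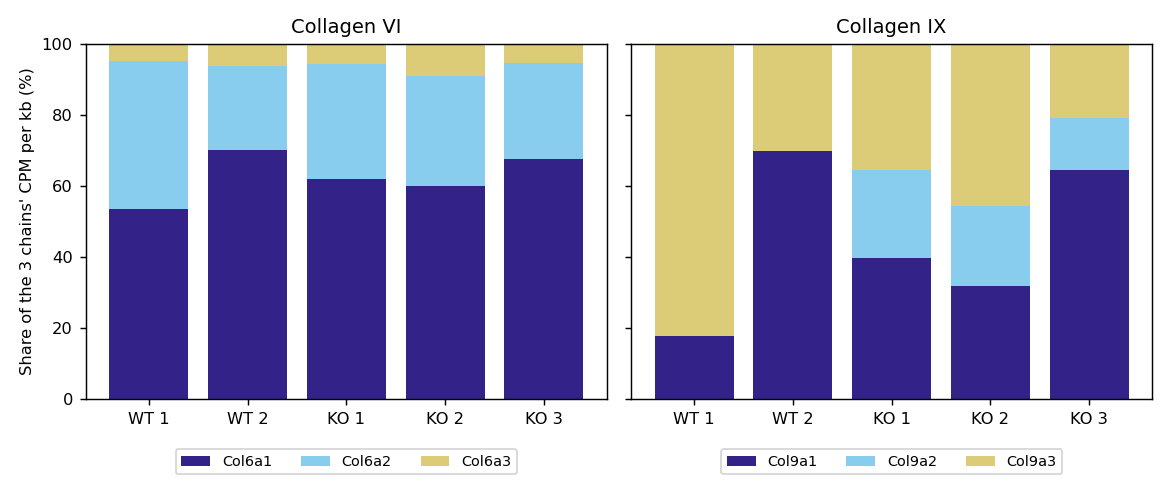
Share of each chain among the 3 chains of collagen VI (left) and of collagen IX (right), in percent of their summed CPM per kilobase of transcript, for each library. Col6a1 holds 53.5 to 70.1% of collagen VI in all 5 libraries, and Col9a2 is at 0 in both WT libraries and holds 14.7 to 25.0% of collagen IX in KO.

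Set against collagen I, collagen VI stood lower in the KO libraries. Summed per kilobase, the collagen VI genes stood at 0.682 and 1.14 times Col1a1 plus Col1a2 in WT 1 and WT 2, and at 0.491, 0.421 and 0.415 times in KO 1, KO 2 and KO 3. The KO libraries lay below both WT libraries, with a mean log2 difference of -0.998 (exact two-sided permutation p = 0.2, the smallest this design allows, and 0.8 adjusted over the 4 ratios). Set against the 6 interstitial markers, collagen VI came to 5.9 and 2.6% of their summed CPM in WT 1 and WT 2 and to 6.2, 7.61 and 7.02% in KO. The KO libraries remained above both WT libraries on this scale, but KO 1 was close to WT 1. Col6a2 alone overlapped, with 2.56% in WT 1 against 2.0 to 2.36% in KO.

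**Figure D2:**
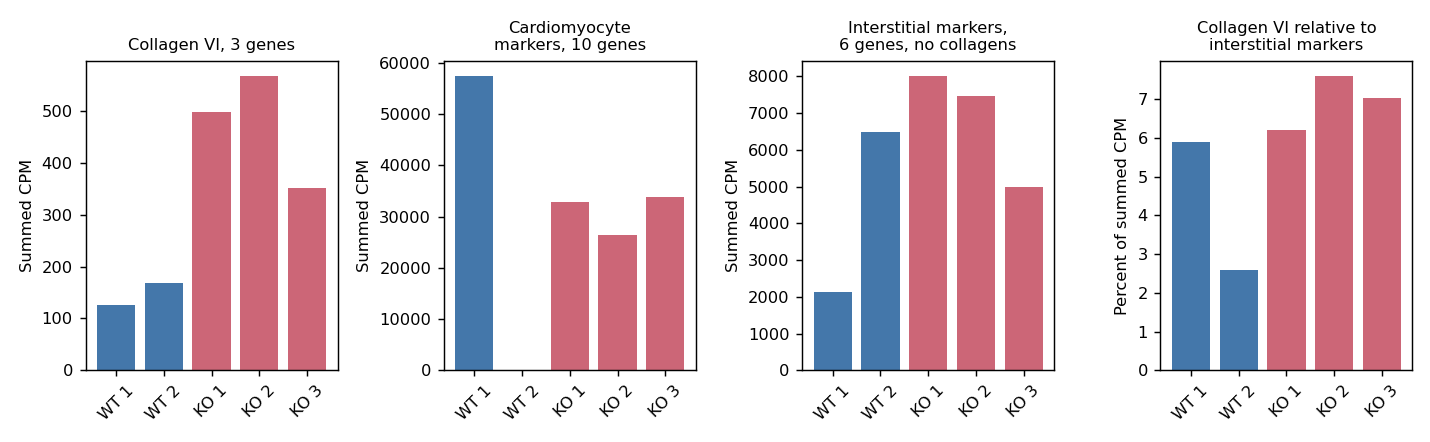
Summed CPM in each library of the 3 collagen VI genes, of 10 cardiomyocyte markers and of 6 interstitial markers that are not collagens, and collagen VI in percent of those interstitial markers. Bars are single libraries with no error; collagen VI is at 126 and 169 CPM in WT against 351 to 568 in KO, while cardiomyocyte markers are at 57514 CPM in WT 1 and 100.03 in WT 2.

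The large fibril-associated collagens Col12a1 and Col14a1 were also higher in every KO library. Col12a1 (chromosome 9, 79598991 to 79718831, minus strand) encodes collagen XII, which links collagen I fibrils in tissues under tension. It measured 4.87 and 6.95 CPM in WT 1 and WT 2, and at 39.3, 58.7 and 14.2 in KO 1, KO 2 and KO 3. KO 3 was the library closest to WT. The WT mean of 5.91 ± 1.47 (SD, n = 2) and the KO mean of 37.4 ± 22.3 (SD, n = 3) were 6.32-fold apart in the fit, with a log2 fold change of 2.66 (SE 0.74). Its transcript is the longest of the 10, at 11511 nt, and the value was 1.498 with the length trend removed.

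Col14a1 (chromosome 15, 55307750 to 55520803, plus strand) encodes collagen XIV, a related chain that takes part in fibril growth. The WT libraries were nearly equal at 18.6 and 18.2 CPM, and KO 1, KO 2 and KO 3 stood at 94.1, 94.8 and 37.6. The log2 fold change was 2.04 (SE 0.54), 4.10-fold, and 1.44 with the length trend removed. As for Col12a1 and collagen VI, KO 3 was the lowest of the KO libraries. Per kilobase the ratio of Col12a1 to Col14a1 was 0.147 and 0.214 in WT and 0.234, 0.347 and 0.212 in KO, which overlap (difference 0.54 on the log2 scale, exact two-sided permutation p = 0.4, 0.8 adjusted over the 4 ratios). Unadjusted p was 0.0112 for Col12a1 and 0.00862 for Col14a1, and the adjusted p was 0.81 for each (edgeR quasi-likelihood test).

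Col16a1 (chromosome 4, 130047840 to 130099283, plus strand) encodes collagen XVI, a minor collagen found with thin fibrils and microfibrils. It stood at 0.571 CPM in WT 1, from 15 reads (95% Poisson interval 0.32 to 0.942), and at 7.78 in WT 2. The KO libraries stood at 33.4, 18.6 and 21.3 CPM. All KO libraries lay above both WT libraries, yet the WT libraries lay further apart from each other, on a log scale, than WT 2 lay from any KO library. The log2 fold change of 2.54 (SE 1.13) moved to 1.62 without WT 1 and to 5.41 without WT 2.

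The collagen IX genes differed among themselves. Col9a1, Col9a2 and Col9a3 encode the chains of 1 heterotrimer best known from cartilage, where it coats collagen II fibrils. Col9a2 (chromosome 4, 121039385 to 121055322, plus strand) had 0 reads in WT 1 and WT 2, and 3 reads over both libraries, taken as the floor, would be 0.0357 CPM. KO 1, KO 2 and KO 3 had 430, 189 and 82 reads, or 13.6, 4.46 and 3.36 CPM. Against that floor it was at least 199-fold higher in KO, and at least 114-fold without KO 1, which held the most reads. The edgeR quasi-likelihood test gave an unadjusted p of 0.00322 (adjusted p = 0.81), but the gene entered the test only through its KO reads, so a difference was built in.

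Col9a1 (chromosome 1, 24177610 to 24252684, plus strand), whose long form carries an extra N-terminal domain, overlapped between the groups. It measured 2.09 and 14.0 CPM in WT 1 and WT 2 and at 28.3, 8.18 and 19.4 in KO 1, KO 2 and KO 3. KO 2 lay between the WT libraries. The log2 fold change was 1.21 (SE 0.99), with 0.39 without WT 1, 3.15 without WT 2 and 0.74 without KO 1. The deposited counts per gene cannot tell its forms apart.

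Col9a3 (chromosome 2, 180597790 to 180622189, plus strand) stood at 7.69 and 4.80 CPM in WT 1 and WT 2 and at 20.1, 9.32 and 4.95 in KO 1, KO 2 and KO 3. KO 3 lay within the WT range. The log2 fold change of 0.87 (SE 0.85) was 0.16 without KO 1 and 0.57 without WT 2. An overlap of 234 nt with exons of Tcfl5 on the opposite strand makes up 6.07% of its exonic length, and the kit does not mark strand, so some reads may belong to either gene. The exons of the other genes of the group shared no base with exons of another annotated gene.

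Per kilobase, Col9a3 made up 82.2% of collagen IX reads in WT 1 and Col9a1 69.9% in WT 2, so the WT libraries differed in their leading chain. Among the KO libraries Col9a1 led in KO 1 and KO 3, with 39.7 and 64.5%, and Col9a3 in KO 2, with 45.5%. In WT, then, reads were found for 2 of the 3 collagen IX chains and in KO for all 3. The cartilage fibril partner of collagen IX, Col2a1, was at 0.419 CPM in WT 1, 5.45 in KO 2 and 0 in WT 2, KO 1 and KO 3. Of the 9 cartilage markers in the table, Matn1 was at 0 in all 5 libraries, and Acan was at 0 in both WT libraries and between 0.0948 and 3.23 CPM in KO. Lect1 had the same pattern, with 0 reads in both WT libraries and 34, 49 and 10 reads in KO 1, KO 2 and KO 3. Ucma did not, with 2.25 CPM in WT 2 and 0 reads in WT 1 and KO 3. The summed level of the list was 54.1 and 374 CPM in WT 1 and WT 2 and 134 to 271 in KO, which overlap. Most of that sum came from Hapln1 in all libraries, with 31.0 and 340 CPM in WT and 97.4 to 233 in KO. The part of such cells in the Col9a2 reads was not tested.

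Col8a1 (chromosome 16, 57624258 to 57754737, minus strand) was uneven within the KO group. It had 0 and 2 reads in WT 1 and WT 2, and 90, 1 and 251 reads in KO 1, KO 2 and KO 3, or 2.84, 0.0236 and 10.3 CPM. KO 2 was thus below WT 2, at 0.0347 CPM, and the groups overlap. Pooled over libraries, KO was 146 times WT (95% interval 40.1 to 1209 from counting error alone), and this rests on KO 1 and KO 3. Without KO 1 or without KO 3 the gene no longer passed the filter. Col8a2, the gene of the partner chain of collagen VIII, showed the reverse, with 0.419 and 2.67 CPM in WT 1 and WT 2 and 0 reads in all 3 KO libraries (adjusted p = 0.81, edgeR quasi-likelihood test); it passed the filter only through WT, as Col8a1 did only through KO. Reads of the 2 collagen VIII genes together were thus found in all 5 libraries, and no KO library held both.

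**Figure D3:**
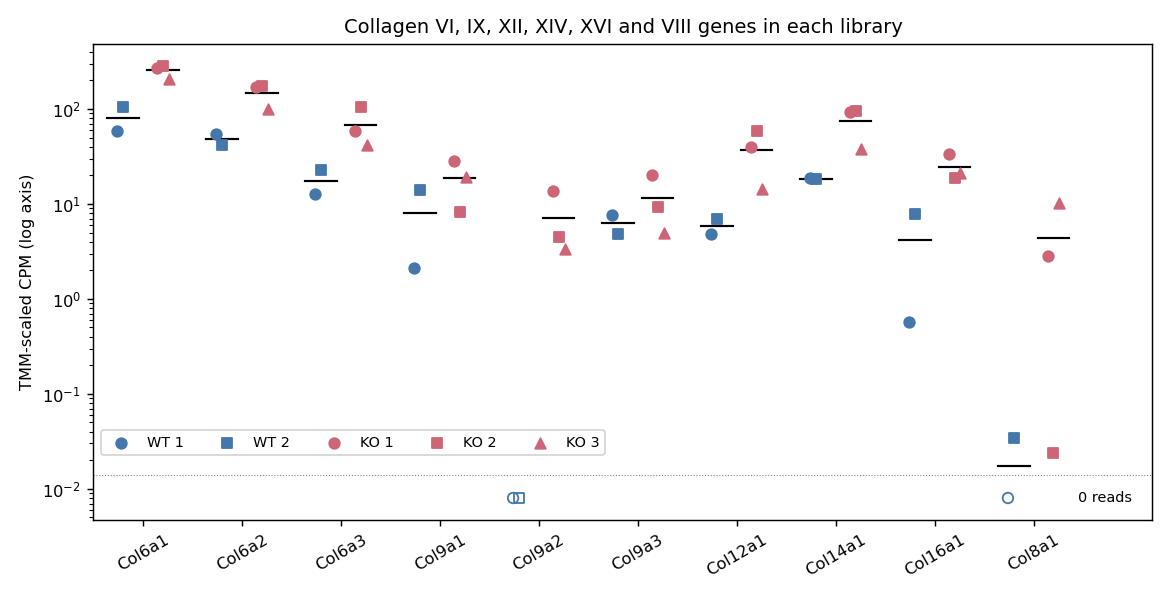
Levels of the 10 genes, 1 point per library (WT blue, KO red, open symbols below the dotted line for 0 reads), as CPM with TMM factors on a logarithmic scale. A black line marks each group's mean, without an error bar; KO lies above WT without overlap for 7 genes, and Col9a1, Col9a3 and Col8a1 overlap.

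Counted together, 7 of the 10 genes stood above both WT libraries in each KO library and 0 stood below both in each. Over all 14244 genes tested the shares were 13.5% and 11.1%. The count was 5 of 10 on the scale of the 6 interstitial markers, where 3.9% of all genes lay higher in every KO library. Those 5 were Col6a1, Col6a3, Col9a2, Col12a1 and Col16a1, while Col6a2 and Col14a1 overlapped there. With 0 reads in both WT libraries, Col9a2 could not lie lower on that scale. Of the 6 markers, Dcn and Postn were themselves higher in every KO library, and Vim, Pdgfra, Lum and Tcf21 overlapped. The log2 fold change was positive for 10 of 10 genes, with a median of 1.997 against -0.01 over all genes tested. Since Col9a2 and Col8a1 could pass the filter only by being high in KO, their direction was fixed by it. Among the other 8 genes, 6 were higher in every KO library, 0 were lower and the median log2 fold change was 1.80.

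The edgeR quasi-likelihood test called 0 of the 10, as it called 0% of all genes at an adjusted p under 0.05 (adjusted p between 0.81 and 0.92 for the 10). At an unadjusted p under 0.05 there were 7 of the 10, all higher in KO, against 4.57% of all genes. Col9a2 and Col8a1, whose direction the filter fixed, are among the 7, and 5 of the other 8 genes were below that p. Col16a1, Col9a1 and Col9a3 were above that level, with p of 0.0639, 0.268 and 0.344. With the length trend removed, 4 of the 10 were below it. The share of all genes in that fit is not given here, and the 4.57% does not apply to it. DESeq2 on the same counts called 3 of the 10, Col6a1 (adjusted p = 0.0344), Col9a2 (5.42e-05) and Col12a1 (0.0418), against 1.6% of all genes. The edgeR likelihood-ratio test called Col9a2 (adjusted p = 0.00442), against 0.351% of all genes, and limma-voom called 0. Col9a2 was thus the only one of the 10 called by both DESeq2 and the likelihood-ratio test, and its entry through KO reads alone applies to these calls too.

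**Figure D4:**
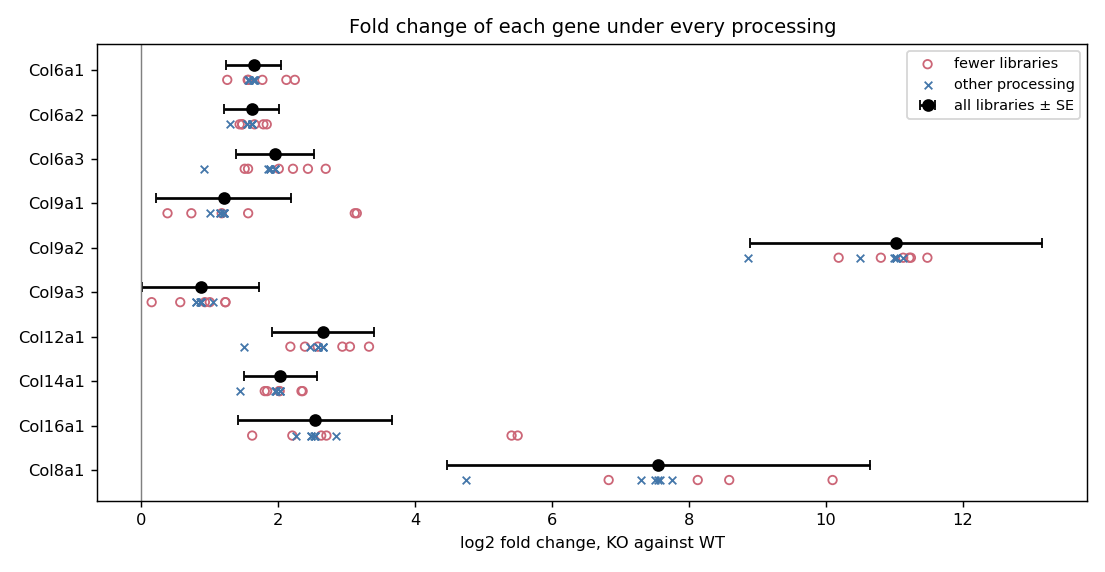
log2 fold change of KO against WT for each of the 10 genes. Black points are the fit to all 5 libraries with its SE, red circles are fits to fewer libraries and blue crosses are other tests, filters and scalings; values for Col6a2 stay between 1.30 and 1.84, those for Col16a1 range from 1.62 to 5.50, and those for Col9a2 and Col8a1 rest on 0 and 2 WT reads.

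The chains of these families outside the 10 genes were mostly at or near 0. Of 8 such genes in the table, 3 had enough reads to be tested and 0 were called. Col6a6, an alternative chain of collagen VI, had 3 reads in WT 1 and 0 in WT 2, and stood at 6.63, 10.1 and 2.01 CPM in KO (adjusted p = 0.81, edgeR quasi-likelihood test). Its KO levels were all above WT, and it too passed the filter only through KO. Col22a1, of tissue junctions, had reads in WT 2 and KO 2 alone, at 5.36 and 2.41 CPM.

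Receptors for collagen VI and related collagens were tested for 9 of 10 genes, of which 4 were higher in every KO library (13.5% of all genes tested), 0 were lower (11.1%) and 0 were called, with a median log2 fold change of 0.92. Antxr1, an anthrax toxin receptor that binds collagen VI, had 1.37 and 2.24 CPM for the WT pair, against 12.1, 20.0 and 5.28 in KO (log2 fold change 2.78, SE 0.95). Cspg4, the proteoglycan NG2 that also binds collagen VI, had 11.8 and 1.53 CPM for the WT pair, against 51.3, 17.4 and 30.5 for KO (2.32, SE 1.01). For both the edgeR quasi-likelihood test gave adjusted p = 0.81. Antxr2, which mediates uptake of collagen VI, overlapped, with 159 and 14.9 CPM in WT and 82.7 to 109 in KO.

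Partners at the fibril and microfibril surface were tested for 10 of 11 genes, of which 7 were higher in every KO library (13.5% of all genes tested) and 0 were lower (11.1%), with a median log2 fold change of 1.41 and 0 called. Among the 7 is Tnxb, with 6 reads in WT 1 and 0 in WT 2. It passed the filter only through KO, so its direction was fixed by it. KO 1 had 11 reads of Tnxb, or 0.347 CPM (95% Poisson interval 0.173 to 0.622). WT 1 stood at 0.228 CPM (0.0838 to 0.497), so these intervals overlap. Fmod (fibromodulin, a proteoglycan of collagen fibrils) had 12.6 and 11.4 CPM for the WT pair, against 69.1, 47.3 and 87.5 in KO. Bgn (biglycan) had 116 and 156 CPM for the WT pair, against 522, 558 and 381 in KO. Lum (lumican), in contrast, overlapped, with 355 and 635 CPM in WT and 349 to 741 in KO. The fibrillar collagens, on which the fibril-associated types sit, had 7 of 9 genes higher in every KO library (13.5% of all genes tested), 0 lower (11.1%) and 0 called, with a median log2 fold change of 3.07. The list holds Col5a3, with 1 read in WT, and Col11a2, with 0, whose fitted values rest on KO reads. Both genes passed the filter only through KO, so their direction was fixed by it, and both enter the median of 3.07. Col5a3 is among the 7, while Col11a2 overlapped. Among the fibrillar collagens the smallest p belonged to Col1a1 and Col1a2, whose levels enter the ratio to collagen VI above.

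The 5 genes whose profile over the 5 libraries was closest to the mean of the collagen VI genes were Mical3, Bgn, Thrap3, Igf2r and Fry. The measure was the root mean square difference of centred log2 CPM, which lay between 0.096 and 0.151 for these genes, out of 10777 with a mean of at least 5 CPM. For comparison the 3 collagen VI genes lay 0.184, 0.279 and 0.236 from their own mean, in the order Col6a1, Col6a2 and Col6a3. Col14a1 at 0.301 and Col12a1 at 0.526 were nearest among the other genes of the group. Col9a3, Col9a1 and Col16a1 followed at 0.816, 1.06 and 1.37, and Col9a2 and Col8a1 were furthest at 2.55 and 2.85.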

How the data were processed

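Mitral leaflet RNA was sequenced from SMART-Seq v4 libraries, a full-length cDNA kit that does not mark strand. The deposited table holds raw read counts per gene symbol. The submitters' processing notes list FastQC 0.11.5, cutadapt 1.11, HTSeq, DESeq2, mm10 and GRCm38. The aligner: not given in the sources used here. Statistics columns of the authors stayed unused.

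Groups came from the titles. Counts were fitted with edgeR 4.0.16 (filterByExpr, TMM, two-sided robust quasi-likelihood F test, Benjamini-Hochberg over 14244 genes). SE is the absolute log2 fold change divided by the root of F. Alternatives were DESeq2 1.42.0, limma 3.58.1, other filters and scalings, and fewer libraries. Levels per kilobase use the longest transcript in GENCODE M21 (GRCm38), and coordinates span the whole gene in the same annotation.

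The 10 genes and all lists were chosen with earlier results of these data known. Named from each list were the genes called or, with 0 called, the 2 with the smallest p; other names were chosen after their values were seen. Intervals (95%) and floors (3 reads) cover counting error only.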

Additional observations from a re-analysis of the deposited data

How the results depend on the processing

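All 10 genes kept a positive log2 fold change in every alternative fit in which they were tested. For Col9a2 and Col8a1 the filter on low counts fixed that sign, and both enter the medians below wherever they were tested. On the scale of 6 interstitial markers, which is not a fit, Col9a3 turned negative, with a mean log2 difference of -0.163. Among single values, 123 kept their side of the threshold, while 4 passed it only with DESeq2 or the likelihood-ratio test. DESeq2 called 219 genes, 3 of them among the 10, and the likelihood-ratio test 50 and 1. Leaving out 1 library gave between 0 and 245 genes called (245 without WT replicate 1, 0 otherwise). The median log2 fold change of the 10 was 1.47 with the length trend removed, 2.91 in the 3 libraries with a shared title code (WT 1, KO 1 and KO 2), and between 1.70 and 2.69 without 1 library (2.69 without WT replicate 2). The median of all genes moved to 0.15 when WT replicate 1 was left out, 0.25 when WT replicate 2 was, and 0.23 with the shared code alone. The cause was not tested. Fits with 1 WT library hold no spread between WT libraries. Col8a1 was not tested without KO replicate 1, without KO replicate 3 or with a filter of 1 CPM in 3 libraries. The length fit left out 654 genes with no matched length. The scale of 6 interstitial markers was added after seeing the data and gave 5 genes in place of 7. No paired analysis was possible because the titles share fewer than 2 numbers between the groups; a block on the title code would compare the groups only within those 3 libraries, as the fit to them does. There the log2 fold change was 2.25 for Col6a1, 2.70 for Col6a3, 3.33 for Col12a1, 3.12 for Col9a1 and 5.50 for Col16a1. Other genes moved less, with 1.66 for Col6a2, 0.93 for Col9a3 and 2.34 for Col14a1. Their values were 1.62, 0.87 and 2.04 in the fit to all libraries. With 0 reads in WT, depth limits Col9a2 to a lower bound.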
